A study of Mus musculus with 54 samples.

Results

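Apoa1, Apoa4, Apob, Apoc2, Apoc3 and Apoe, 6 of the 25229 genes counted in the series, encode apolipoproteins, the proteins that coat the fat particles leaving the gut. They were taken by symbol and compared between sections of the mouse small intestine and between lactating and virgin females. RNA came from tissue of the ileum (the far end of the small intestine), the jejunum (the middle) and the duodenum (next to the stomach). Within each section there were 6 libraries from females on day 7 of lactation (LF), 6 from age-matched virgin females (VF) and 6 from virgin males (VM), 54 in all. The labels name no strain, allele or drug. They give the breeding feed as RM3 and the feed for maintenance and experiments as RM1, without saying which the lactating mothers ate. Nor do they say whether libraries came from separate animals, so p-values measure the spread between these libraries.

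The 52 libraries used held between 18479722 and 27604041 reads on genes, with reads on between 17019 and 17894 genes. LF duodenum library 3 was left out because its profile was that of liver. It had a summed level of 243649 CPM (reads of a gene per 1000000 gene reads, TMM-scaled) over 8 liver markers, against at most 268.8 CPM in any duodenum library kept, and 117 CPM over 5 enterocyte markers, against at least 8436 CPM. LF jejunum library 3 was left out because it carried duodenum markers (Tmprss15 and Pdx1) at 71.7 CPM, against at most 0.365 CPM in the other jejunum libraries. In the libraries kept, the duodenum and ileum markers matched the labelled section. The duodenum markers summed to between 57.0 and 331 CPM in duodenum and at most 0.778 CPM in ileum. The jejunum marker Lct set jejunum (3092 to 5016 CPM) apart from ileum (at most 5.04 CPM). It did not set jejunum apart from duodenum (1019 to 3656 CPM). The ileum markers Fabp6 and Slc10a2 summed to between 1919 and 7261 CPM in ileum, at most 27.6 CPM in jejunum and at most 1.59 CPM in duodenum. Other tissue was present too: 4 exocrine pancreas markers summed to between 0.145 and 10324 CPM in duodenum, against at most 0.222 CPM in jejunum, and their part in the duodenal values was not tested. Adipocyte markers had median sums of 234 CPM in ileum, 214 CPM in jejunum and 106 CPM in duodenum. Those sums ranged over 16.6 to 511 CPM in ileum, 151 to 285 CPM in jejunum and 76.1 to 199 CPM in duodenum. The part of adipocytes in the section differences was not tested. The 268.8 CPM of liver markers was found in VF duodenum library 3, with the next duodenum library kept at 15.5 CPM. The part of this liver trace in the duodenal values was not tested. Bulk tissue was measured, so fewer cells of a type and less RNA per cell cannot be told apart.

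Enterocytes pack absorbed fat into chylomicrons. Apolipoprotein B is the scaffold of the particle, and the microsomal transfer protein (Mttp) loads it with lipid in the endoplasmic reticulum. Apolipoproteins A-I and A-IV join on the surface, and A-I is also the main protein of high-density lipoprotein. C-II activates lipoprotein lipase, which unloads the particle in the circulation, whereas C-III restrains that lipase and the uptake of remnants. Apolipoprotein E is a ligand of the receptors that clear remnants, and macrophages are among the cells that make it.

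Apoa1 (chr9:46228580-46230466, plus strand), Apoc3 (chr9:46232933-46235636, minus strand) and Apoa4 (chr9:46240696-46243459, plus strand) lie side by side in a cluster, with gaps of 2466 and 5059 bases between them. Coordinates are from GENCODE M21 on GRCm38. Apoc2 (chr7:19671579-19677941) and Apoe (chr7:19696109-19699188) share another cluster on the minus strand, 18167 bases apart. Apob (chr12:7977648-8016835, plus strand) stands alone and has the longest transcript, with 13934 exon bases against 2138 or fewer for the other members. Of the exon bases of Apoc2, 79.5% are shared with Gm44805, a gene on the same strand that had 0 reads in all 54 libraries. The counts keep a class of ambiguous reads apart from the genes, and whether reads on the shared bases went there is not stated. Reads set aside in this way would make levels of Apoc2 too low and ratios of Apoc3 to Apoc2 too high. Apoc2 had 1557 reads in all 54 libraries together, so every Apoc2 level, ratio and fold change here is uncertain.

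The intestine makes the short form of apolipoprotein B, because the enzyme APOBEC1 turns a glutamine codon of the messenger into a stop codon. That codon lies in exon 26 of 29 (codon 2179 of 4505) of the longer of 2 annotated coding transcripts, at chr12:8008054-8008056. The site is shown, read from the GRCm38 genome on the plus strand at chr12:8008044-8008073, because gene counts do not tell edited from unedited messenger, so every Apob value here covers both forms. Capitals mark the CAA codon and, 2 bases on, a run of 9 bases from the mooring sequence that guides the enzyme.
Apob editing site: atacgcgataCAAttTGATCAGTAtattaa

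Promoter windows of Apoa1 and Apoa4 are shown because these neighbours on the same strand were near equal in jejunum and duodenum and far apart in ileum. Each runs 250 bases before to 50 bases after the gene start in RefSeq (GRCm38.p6), with the bases after that start in capitals. They lie at chr9:46228380-46228679 and chr9:46240594-46240893 on the plus strand. The GENCODE starts given above, 46228580 for Apoa1 and 46240696 for Apoa4, fall among the lower-case bases. Some bases shown before the RefSeq start are thus within the gene as GENCODE annotates it.
Apoa1 promoter: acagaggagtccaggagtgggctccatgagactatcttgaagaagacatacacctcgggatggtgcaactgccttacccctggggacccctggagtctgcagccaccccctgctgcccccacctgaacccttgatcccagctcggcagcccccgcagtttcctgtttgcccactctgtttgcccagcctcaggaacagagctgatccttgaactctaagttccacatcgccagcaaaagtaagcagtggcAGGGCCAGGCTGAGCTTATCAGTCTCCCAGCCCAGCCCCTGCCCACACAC
Apoa4 promoter: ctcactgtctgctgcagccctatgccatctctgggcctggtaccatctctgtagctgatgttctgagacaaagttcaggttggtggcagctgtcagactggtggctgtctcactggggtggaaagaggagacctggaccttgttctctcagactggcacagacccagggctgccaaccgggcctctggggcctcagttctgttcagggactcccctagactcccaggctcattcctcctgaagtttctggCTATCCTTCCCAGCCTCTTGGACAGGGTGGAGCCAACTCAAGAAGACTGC

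Windows were on hand for 5 members, 7 windows in all with 3 for Apoe. Each motif was searched in a single spelling, on both strands. Other spellings were not searched, so a count of 0 does not show that a window lacks such a site. The GATA letters AGATAA were in 0 of 7 windows, against 11.2% of 32851 promoter windows of the same length. A letter run of the HNF4 site, CAAAGTCCA, was in 0 of 7, against 0.475% of all windows, so that count is near the background. TATAAA was in 2 of 7 (Apob and 1 window of Apoe), against 13.6%, and AGGTCA was in 1 of 7 (Apoc2), against 16.3%. TTTATG, letters of a CDX site, was in 0 of 7, against 11.9%. With only 7 windows, the counts of 0 for GATA and CDX are not set apart from their shares either. The Apoe window holds TATAAA on both strands, at 96 bases and 100 bases before its RefSeq start, where the letter runs overlap. This window (chr7:19698572-19698871) lies within Apoe as GENCODE annotates it.

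Apoa1 and Apoa4 were among the most abundant transcripts of the proximal small intestine. Between genes, levels are compared per length, as RPKM, the CPM per 1000 exon bases. In jejunum the median levels over 17 libraries were 12705 RPKM for Apoa1 and 10831 RPKM for Apoa4. Ranks here use the mean level over libraries, by which these genes were the highest and second highest of 24321 genes with a length. Apoc3 followed at 840 RPKM, Apob at 445 RPKM, Apoe at 82.5 RPKM and Apoc2 at 2.41 RPKM. The same pair led in duodenum, with medians of 7215 RPKM for Apoa1 and 6468 RPKM for Apoa4. In ileum, Apoa1 was still the third gene at 3618 RPKM, whereas Apoa4 ranked 814 at 41.7 RPKM, below Apob at 135 RPKM and Apoe at 115 RPKM. The 6 genes together took, on average, 0.763% ± 0.249 of gene reads in VF ileum, 3.98% ± 0.655 in VF jejunum and 2.72% ± 0.505 in VF duodenum (SD, n = 6 each).

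**Figure D1:**
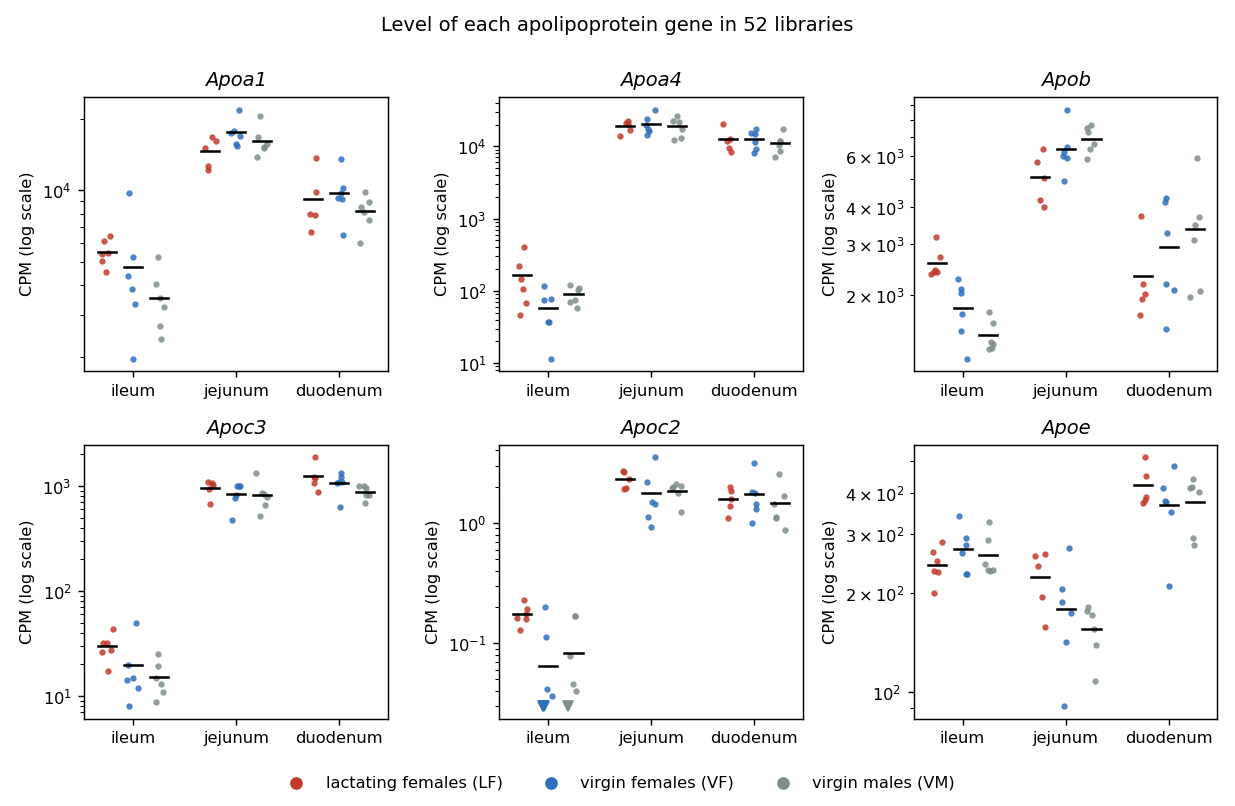
Level of each gene in CPM on a log axis, by section (ileum, jejunum, duodenum from left to right) and group (LF red, VF blue, VM grey); each point is a library, the bar is the group mean, and downward triangles mark libraries with 0 Apoc2 reads. Apoa4, Apoc3 and Apoc2 sit far lower in ileum than in the other sections, Apob is highest in jejunum, and Apoe is highest in duodenum.

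Every member differed between ileum and jejunum of virgin females: 5 were lower in ileum and Apoe was higher. The test was edgeR's quasi-likelihood F test with Benjamini-Hochberg adjustment over all 15154 genes tested, and called here means an adjusted p below 0.05. Of all genes tested, 48% were called in this comparison, so 6 of 6 is a count to be read against a wide background. The sizes ran from 1.52-fold to 352-fold, with a median log2 fold change of -3.26 over the 6 genes, against 0.06 over all genes tested.

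Cell type markers moved with the sections too. The 5 enterocyte markers, all with reads in every group, summed to between 7891 and 10760 CPM in VF ileum, between 13810 and 18638 CPM in VF jejunum and between 8568 and 12605 CPM in VF duodenum, so jejunum lay above both other sections without overlap. The 5 smooth muscle markers, also all with reads, summed to between 3719 and 5927 CPM in VF ileum, between 998 and 5527 CPM in VF jejunum and between 1554 and 4339 CPM in VF duodenum. Their part in the section differences of the members was not tested.

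Apob, the scaffold, was highest in jejunum. Its lowest, median and highest levels were 1207, 1876 and 2270 CPM in VF ileum, 4922, 6096 and 8673 CPM in VF jejunum, and 1532, 2718 and 4306 CPM in VF duodenum. Ileum and jejunum did not overlap, nor did jejunum and duodenum, whereas ileum lay within and below the duodenal range. The log2 fold change was -1.82 ± 0.24 for ileum over jejunum (SE, adjusted p = 5.26e-06) and 1.12 ± 0.24 for jejunum over duodenum (adjusted p = 0.00115). For ileum over duodenum it was -0.70 ± 0.23 (adjusted p = 0.02), and this call was lost without VF duodenum library 3 (adjusted p = 0.0559) or library 6 (adjusted p = 0.0789).

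Apoa1 was lower in ileum by a few fold. It had 1972, 4116 and 9746 CPM as lowest, median and highest in VF ileum, 15407, 17204 and 21821 CPM in VF jejunum, and 6529, 9543 and 13560 CPM in VF duodenum. The jejunal libraries all lay above the rest, and ileum and duodenum overlapped through VF ileum library 2. Apoa1 was 3.68-fold lower in ileum than in jejunum (log2 -1.88 ± 0.28, adjusted p = 2.45e-05) and 2.05-fold lower than in duodenum (log2 -1.04 ± 0.28, adjusted p = 0.00466). Jejunum was 1.79-fold above duodenum (log2 0.84 ± 0.28, adjusted p = 0.0225), a call lost without VF duodenum library 4 (adjusted p = 0.0545).

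Apoa4 showed the widest difference of the 6. Levels in VF ileum were 11.5, 55.3 and 115 CPM (lowest, median, highest), against 14404, 18568 and 32175 CPM in VF jejunum and 8190, 13168 and 17077 CPM in VF duodenum. No ileal library came near the others. The ileum was 352-fold below jejunum (log2 -8.46 ± 0.52, adjusted p = 1.44e-10) and 218-fold below duodenum (log2 -7.77 ± 0.50, adjusted p = 1.91e-10). Jejunum over duodenum was 0.69 ± 0.37 and was not called (adjusted p = 0.158, 95% interval -0.09 to 1.48).

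Apoc3, the lipase inhibitor that lies between Apoa1 and Apoa4 on the chromosome, also lay between them in the size of its difference. It had 8.01, 14.5 and 50.1 CPM in VF ileum (lowest, median, highest), 479, 915.5 and 1013 CPM in VF jejunum, and 639, 1089 and 1332 CPM in VF duodenum. The ileum stood apart from both, at 43.0-fold below jejunum (log2 -5.43 ± 0.39, adjusted p = 1.49e-09) and 54.3-fold below duodenum (log2 -5.76 ± 0.40, adjusted p = 4.73e-10). Jejunum over duodenum was -0.34 ± 0.32 (adjusted p = 0.439).

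Apoc2, the lipase activator, had few counted reads in every section. Over 6 libraries each it had 10 reads in VF ileum, with 0 reads in 2 libraries, 222 reads in VF jejunum and 253 reads in VF duodenum. Its fold changes were -4.64 ± 0.54 for ileum over jejunum (adjusted p = 9.31e-07) and -4.60 ± 0.53 for ileum over duodenum (adjusted p = 6.97e-07), while jejunum over duodenum was 0.04 ± 0.37 (adjusted p = 0.948). These values rest on few reads, and whether reads on the bases shared with Gm44805 were set aside as ambiguous is not stated.

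Apoe ran the other way, lowest in jejunum and highest in duodenum. Its levels were 228, 271 and 340 CPM in VF ileum (lowest, median, highest), 90.9, 180 and 272 CPM in VF jejunum, and 210, 377 and 482 CPM in VF duodenum. All 3 ranges overlapped. It was 1.52-fold higher in ileum than in jejunum (log2 0.61 ± 0.21, adjusted p = 0.0235), a call lost without VF jejunum library 5 (adjusted p = 0.0567). Jejunum was 2.07-fold below duodenum (log2 -1.05 ± 0.21, adjusted p = 0.000801). Ileum over duodenum was -0.44 ± 0.21 (adjusted p = 0.0898). It became called without VF duodenum library 1 (adjusted p = 0.0233) and in 1 fit of all 9 groups (adjusted p = 0.0273).

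In all, ileum over duodenum called 5 of 6 members (all lower), with 47.1% of all genes called. Jejunum over duodenum called 3 of 6 (Apoa1 and Apob higher, Apoe lower), with 37.2% of all genes called, so that share is close to the background.

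**Figure D2:**
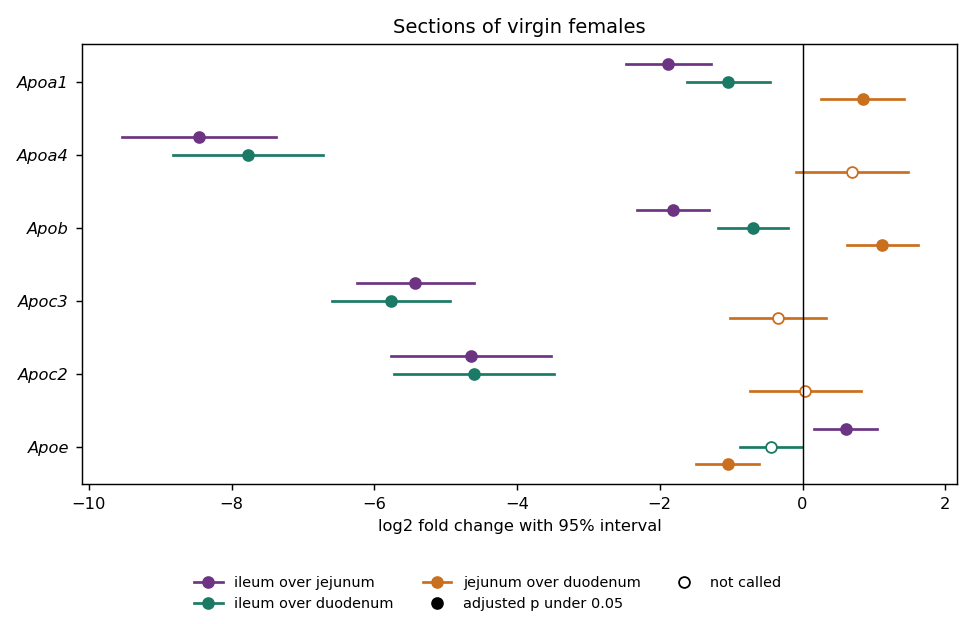
Log2 fold change between sections of virgin females for each gene, with its 95% interval; filled points have an adjusted p under 0.05. Apoa4, Apoc3 and Apoc2 lie between -8.46 and -4.60 in both comparisons of the ileum, Apoa1 and Apob lie between -1.88 and -0.70, and Apoe is above 0 against jejunum.

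The same sections were compared in lactating females and in virgin males, each in a fit of its own. In lactating females, ileum over jejunum called 5 of 6 members, all lower (37.2% of all genes called), ileum over duodenum called 5, all lower (53.3%), and jejunum over duodenum called 4, with 3 higher (27.4%). Apoa4 was 115-fold lower in LF ileum than in LF jejunum (log2 -6.84 ± 0.51, adjusted p = 1.02e-08), and Apoc3 32.2-fold lower (log2 -5.01 ± 0.24, adjusted p = 3.02e-11). Apob had 6342, 4003, 5037, 5732 and 4227 CPM in the 5 LF jejunum libraries, against 2189, 1929, 2014, 3732 and 1711 CPM in the 5 LF duodenum libraries. All jejunal values were above all duodenal ones (log2 1.14 ± 0.20, adjusted p = 0.000526). LF ileum held 2354, 2421 and 3176 CPM of Apob (lowest, median, highest), within the duodenal range, and ileum over duodenum was 0.17 ± 0.19 (adjusted p = 0.475). That value was called without LF duodenum library 5, at 0.42 (adjusted p = 0.0251). Apoe had 158, 261, 258, 194 and 240 CPM in LF jejunum, against 374, 513, 450, 381 and 389 CPM in LF duodenum, again with no overlap (log2 -0.91 ± 0.14, adjusted p = 0.000115). Apoc2 was called higher in LF jejunum than in LF duodenum at 0.56 ± 0.19 (adjusted p = 0.035), and the call was lost in 6 of 10 fits that left out a library. With all libraries as labelled, jejunum over duodenum called 1 member in place of 4, Apoe at -4.84 (adjusted p = 0.0185), and ileum over jejunum called 4 in place of 5, with Apob at -0.81 (adjusted p = 0.121).

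In virgin males, ileum over jejunum called 6 of 6 members (64.2% of all genes), ileum over duodenum 6 of 6 (65.2%) and jejunum over duodenum 4 of 6 (50.1%). Apoa4 was 211-fold lower in VM ileum than in VM jejunum (log2 -7.72 ± 0.31, adjusted p = 2.38e-13), and Apoc3 was 54.1-fold lower (log2 -5.76 ± 0.27, adjusted p = 2.01e-12). Apob was lower in VM ileum than in VM duodenum (log2 -1.21 ± 0.20, adjusted p = 3.71e-05). Apoe was lower in VM jejunum than in VM duodenum (log2 -1.26 ± 0.14, adjusted p = 6.12e-07) and higher in VM ileum than in VM jejunum (log2 0.74 ± 0.14, adjusted p = 0.00011).

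A ratio of reads of a gene pair within a library does not depend on library scaling. Reads of Apoa4 per read of Apoa1 ran from 0.00263 to 0.0219 in VF ileum, from 0.908 to 1.47 in VF jejunum and from 0.951 to 1.68 in VF duodenum. The ileal ratios did not overlap with those of either other section, and the jejunal and duodenal ratios did overlap. The log2 ratio differed by -6.70 between ileum and jejunum and by -6.87 between ileum and duodenum (2-sided exact permutation test, p = 0.00216 for each, the smallest that 6 against 6 libraries allow, adjusted p = 0.00974 over 9 ratio tests). Between jejunum and duodenum the difference was -0.17 (exact p = 0.318, adjusted p = 0.501). Apoc3 had between 285 and 732 reads per read of Apoc2 in VF jejunum and between 349 and 1327 in VF duodenum, a log2 difference of -0.33 (exact p = 0.39, adjusted p = 0.501). In ileum that ratio could not be formed, because 2 VF libraries had 0 Apoc2 reads.

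**Figure D3:**
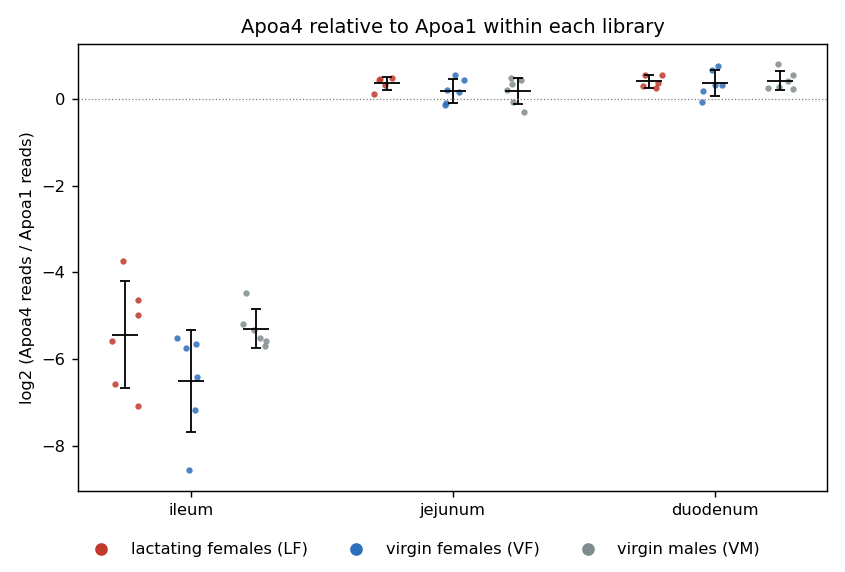
Log2 ratio of Apoa4 to Apoa1 reads in each library, by section (ileum, jejunum, duodenum from left to right) and group (LF red, VF blue, VM grey); bars give the group mean and 1 SD. Jejunal and duodenal libraries gather near 0, and every ileal library lies far below them, with VF means of -6.51 in ileum, 0.19 in jejunum and 0.36 in duodenum.

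Lactation called none of the members in any section. Against virgin females, 0 of 5 tested members were called in ileum (2.16% of all genes called), 0 of 6 in jejunum (1.31%) and 0 of 6 in duodenum (0.00662%, a lone gene). At an unadjusted p under 0.05 there were 2 of 5 members in ileum (17.9% of all genes), 1 of 6 in jejunum (14.98%) and 0 of 6 in duodenum (8.51%), so the jejunal count is near the background. DESeq2 called 1 member in ileum, where it called 891 of 15106 genes in place of 327, and 0 members in the other sections. With all libraries as labelled, 0 members were called in jejunum and 0 in duodenum.

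Apob in ileum came nearest to a call. It had 2354, 2421 and 3176 CPM in LF ileum (lowest, median, highest), against 1207, 1876 and 2270 CPM in VF ileum. The groups did not overlap. The log2 fold change was 0.50 ± 0.13, or 1.42-fold, with a 95% interval of 0.22 to 0.78 and an adjusted p of 0.0549. Across the settings tried and the fits that each left out a library, Apob stayed above 0 and its adjusted p ran on both sides of the threshold: 0.0069 with DESeq2, 0.049 with median-of-ratios scaling, 0.274 in 1 fit of all 9 groups, and between 0.0271 and 0.113 when a library was left out. The 5 enterocyte markers moved alongside, with sums of 10824 to 12384 CPM in LF ileum, against 7891 to 10760 CPM in VF ileum, all 5 markers with reads in both groups; their part in the Apob value was not tested.

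Apoa4 in ileum had 45.6, 125 and 403 CPM in LF libraries (lowest, median, highest), against 11.5, 55.3 and 115 CPM in VF libraries. The groups overlapped, and the spread within each was wide. Its log2 fold change was 1.48 ± 0.48 (95% interval 0.47 to 2.49, adjusted p = 0.1). It was called in 1 fit of all 9 groups (adjusted p = 0.0283) and without VF ileum library 2 (log2 1.79, adjusted p = 0.0381), the VF library with the highest Apoa4. Without LF ileum library 1, at 403 CPM, it was 0.98 (adjusted p = 0.285). The ratio of Apoa4 to Apoa1 reads had a mean log2 of -5.44 ± 1.24 in LF ileum and -6.51 ± 1.19 in VF ileum (SD, n = 6 each; exact permutation test, p = 0.158, adjusted p = 0.474).

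Apoc3 in ileum had 17.3, 29.6 and 43.4 CPM in LF libraries, against 8.01, 14.5 and 50.1 CPM in VF libraries. The highest value was VF library 2, and the other VF libraries reached 19.8 CPM. With that library the log2 fold change was 0.58 ± 0.35 (adjusted p = 0.415). Without it the value was 1.10 (adjusted p = 0.0201), and 3 members (Apoa4, Apob and Apoc3) were called in ileum. That fit also called more genes than any other that left out an ileum library, so the 3 stand against a larger background. The count over all genes is given under the dependence on processing. Apoa1 was 0.20 ± 0.27 (adjusted p = 0.755) and Apoe -0.17 ± 0.11 (adjusted p = 0.456). Apoc2 was below the count filter, with 25 reads in the 6 LF ileum libraries, against 10 reads in the 6 VF ileum libraries.

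In jejunum, Apob had 6342, 4003, 5037, 5732 and 4227 CPM in LF libraries, against 4922, 6096 and 8673 CPM in VF libraries (lowest, median, highest). The groups overlapped, and the log2 fold change was -0.33 ± 0.15 (95% interval -0.64 to -0.02, adjusted p = 0.299). Apoa1 was -0.27 ± 0.13 (adjusted p = 0.35), and the other 4 members lay between -0.12 and 0.36 with adjusted p of 0.529 or more. In duodenum the 6 values lay between -0.32 (Apob) and 0.23 (Apoc3), with adjusted p of 0.81 or more. Exocrine pancreas markers there summed to between 0.145 and 9491 CPM in LF libraries and between 1.16 and 6063 CPM in VF libraries.

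**Figure D4:**
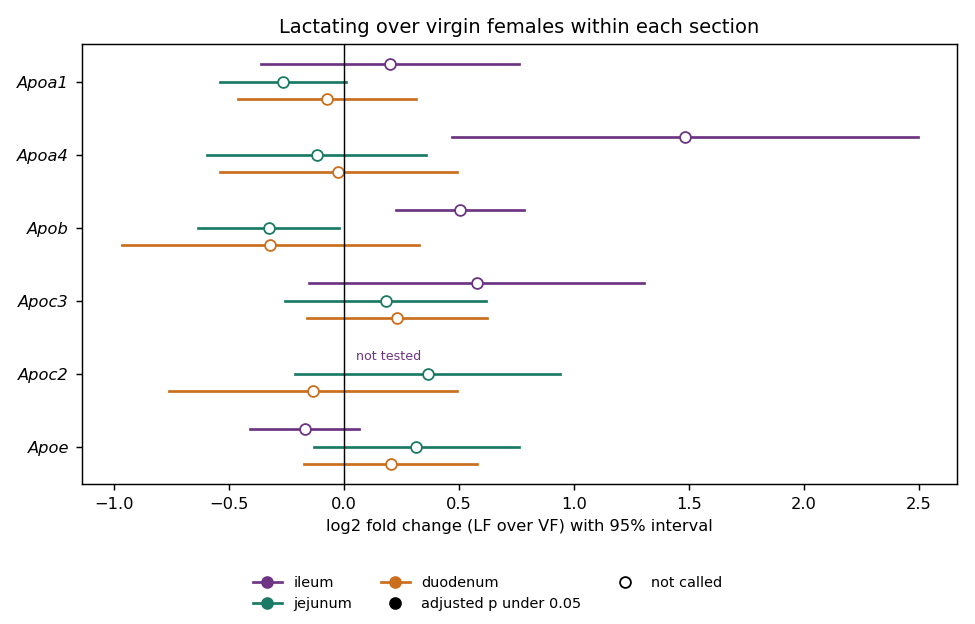
Log2 fold change of lactating over virgin females in ileum, jejunum and duodenum for each gene, with its 95% interval; open points were not called, and Apoc2 was not tested in ileum. The intervals of Apoa4 (0.47 to 2.49) and Apob (0.22 to 0.78) in ileum lie above 0 without passing the adjusted threshold.

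Whether the lactation difference itself varied between sections was tested in a fit of the 34 female libraries. No member was called for ileum minus jejunum (0.0256% of all genes called), ileum minus duodenum (0.0703%) or jejunum minus duodenum (0%). Counted at an unadjusted p under 0.05, there were 2, 3 and 0 of 6 members in that order, against 7.58%, 5.41% and 3.79% of all genes, and DESeq2 called 0 in each. Apoa4 differed by 1.59 ± 0.59 between ileum and jejunum (adjusted p = 0.466), and Apob by 0.82 ± 0.31 (adjusted p = 0.491). For ileum minus duodenum, Apoa4 differed by 1.51 ± 0.59 (adjusted p = 0.71), Apob by 0.83 ± 0.31 (adjusted p = 0.675) and Apoc2, on few reads, by 1.45 ± 0.64 (adjusted p = 0.819). With all libraries as labelled, 0 members were called in each of the 3.

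Virgin females and virgin males were also compared, and no member was called in ileum (0.0993% of all genes called), jejunum (0.0676%) or duodenum (0.0331%). An unadjusted p under 0.05 was found for 1 of 5 members in ileum (9.74% of all genes), 0 of 6 in jejunum (7.20%) and 0 of 6 in duodenum (8.07%), and DESeq2 called 0 in all 3. That member was Apob, with 1207, 1876 and 2270 CPM in VF ileum, against 1308, 1368 and 1747 CPM in VM ileum (log2 0.33 ± 0.13, adjusted p = 0.432). This comparison and that of lactation share the VF libraries. Apoa4 in ileum was -0.60 ± 0.48 (adjusted p = 0.698), with 58.7, 88.2 and 121 CPM in VM libraries.

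How the members varied among libraries beyond section and group was described by the deviation of log2 CPM from the group mean. Over the 52 libraries, which may share animals, 16 relations were computed, with 100000 permutations within groups. Apoa1 and Apoc3 deviated together (Pearson r = 0.87, Spearman rho = 0.82, permutation p = 1e-05 for each, the smallest that these permutations can give, adjusted p = 8e-05). Without the 2 libraries farthest from the median, r was 0.81, and it was 0.94 in ileum, 0.72 in jejunum and 0.86 in duodenum. Apoa1 and Apoa4 had r = 0.82 in jejunum (adjusted permutation p = 0.00048) and 0.86 in duodenum (0.00016), and 0.17 in ileum (0.846). Over all libraries r was 0.37 and rho 0.40 (permutation p = 0.0661 and 0.00902, adjusted p = 0.123 and 0.018), and r was 0.26 without the 2 farthest. Apoa1 and Apob had r = 0.39 and rho = 0.46 (permutation p = 0.00704 and 0.002, adjusted p = 0.0375 and 0.00787), and r = 0.47 without the 2 farthest. That pair was called in jejunum (r = 0.77, adjusted p = 0.006), and not in duodenum (r = 0.47, adjusted p = 0.157) or ileum (r = 0.35, adjusted p = 0.692). Of the 16 relations, 3 had an adjusted p of r under 0.05 over all libraries: Apoa1 with Apoc3, Apoa1 with Apob, and Apoe with macrophage markers. By rho, 9 of the 16 had one under 0.05.

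Apoe deviated with macrophage markers. The summed level of 10 markers (among them Csf1r, C1qa and Mpeg1) had an r of 0.85 and a rho of 0.77 with Apoe (permutation p = 1e-05 for each, adjusted p = 8e-05), and 0.78 without the 2 farthest libraries. It was 0.63 in ileum (adjusted p = 0.0758), 0.96 in jejunum (adjusted p = 0.00016) and 0.78 in duodenum (adjusted p = 0.0186). All 10 markers had reads in every group. Their sum ran from 168 to 298 CPM in ileum (median 242), from 84.4 to 254 CPM in jejunum (median 155) and from 184 to 436 CPM in duodenum (median 375), the same order of medians as Apoe at 246, 176 and 389 CPM. Its part in the section differences of Apoe was not tested. In jejunum the other members' r with Apoe lay between -0.66 and -0.56, and Apoa1, Apoa4, Apoc2 and Apoc3 passed the adjusted threshold there. In ileum the same 5 values lay between -0.49 and 0.41 and in duodenum between -0.52 and 0.14, and none of them passed it.

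**Figure D5:**
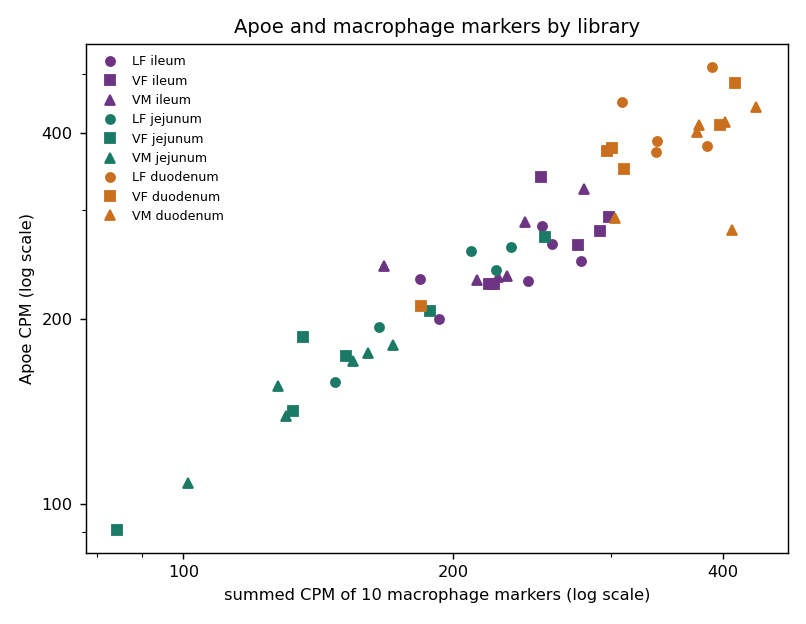
Apoe level against the summed level of 10 macrophage markers in each of 52 libraries, both in CPM on log axes, coloured by section (ileum purple, jejunum green, duodenum orange) with symbols for LF, VF and VM. Jejunal libraries lie at the lower left, down to 90.9 CPM of Apoe, and duodenal libraries at the upper right, apart from VF duodenum library 1 at 210 CPM of Apoe.

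Partners of these proteins were read from 4 lists, 70 genes in all, of which 69 were in the files. The list counts stand against all genes tested in VF, of which 23.9% were higher and 24.1% lower in ileum than in jejunum, 21.1% higher and 26.0% lower in ileum than in duodenum, and 17.2% higher and 20.03% lower in jejunum than in duodenum. The 20 genes of lipoprotein assembly gave 19 tested. In VF ileum against jejunum 17 were lower and 0 higher, with a median log2 fold change of -1.19, against 0.06 over all genes. Fabp1, a fatty acid carrier of enterocytes, was 504-fold lower (log2 -8.98 ± 0.44, adjusted p = 5.93e-12), at 5.62 ± 3.19 CPM in VF ileum and 2822 ± 669 CPM in VF jejunum (SD, n = 6 each). Mttp was 6.12-fold lower (log2 -2.61 ± 0.19, adjusted p = 1.53e-09), Fabp2 5.44-fold lower (adjusted p = 1.18e-07), and Dgat1, which makes triglyceride, 3.60-fold lower (adjusted p = 1.61e-09). Against VF duodenum, 14 were lower in ileum and 0 higher; there Prap1, which helps Mttp load lipid, was 8.75-fold lower (adjusted p = 5.58e-08). In VF jejunum against duodenum 12 were higher and 1 lower. Fabp2 was 6.91-fold higher (adjusted p = 9.46e-08), Cd36 2.80-fold higher (adjusted p = 0.00325) and Fabp1 1.77-fold higher (adjusted p = 0.0426), and Prap1 was the lower gene at 2.56-fold (adjusted p = 0.00107). Apobec1, the editing enzyme, was 43.2 ± 5.88 CPM in VF ileum, 68.9 ± 10.1 CPM in VF jejunum and 80.4 ± 8.23 CPM in VF duodenum. It was lower in ileum than in jejunum (log2 -0.67 ± 0.11, adjusted p = 4.34e-05), and it is named for its link to the site above, after its values were seen.

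Among 22 transcriptional regulators of these genes, 12 were lower and 4 higher in VF ileum than in jejunum. Gata4, a factor of the proximal gut, was 198-fold lower (log2 -7.63 ± 0.17, adjusted p = 1.17e-16), at 0.648 ± 0.228 CPM in VF ileum and 128 ± 9.05 CPM in VF jejunum. Creb3l3, a membrane-bound factor of lipid metabolism, was 13.4-fold lower (adjusted p = 1.49e-09) and Nr0b2 13.6-fold lower (adjusted p = 1.25e-05). Nr1h4, the bile acid receptor, was 5.86-fold higher (log2 2.55 ± 0.13, adjusted p = 1.35e-11). Against VF duodenum, 12 were lower in ileum and 6 higher, and Nr0b2 was 69.9-fold lower (adjusted p = 1.37e-08). In VF jejunum against duodenum 4 were higher and 2 lower, a share of 22 below the 37.2% of all genes called, with Hnf4a 1.55-fold higher (adjusted p = 0.000389), Nr2f2 1.61-fold (adjusted p = 0.000221) and Cdx2 1.53-fold (adjusted p = 0.000397), and Nr0b2 5.14-fold lower (adjusted p = 0.000205).

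Of 18 receptors and remodelling factors, 9 were higher and 3 lower in VF ileum than in jejunum. Abca1, which loads cholesterol onto apolipoprotein A-I, was 5.93-fold lower (adjusted p = 8.19e-09), and Angptl4, a lipase inhibitor, 3.49-fold lower (adjusted p = 2.78e-05). Against VF duodenum 5 were higher and 5 lower; Scarb1, the receptor of high-density lipoprotein, was 17.1-fold lower in ileum (adjusted p = 2.02e-08) and Lpl 3.49-fold higher (adjusted p = 0.022). In VF jejunum against duodenum 2 were higher and 5 lower, with Abca1 3.16-fold higher (adjusted p = 5.05e-06), Scarb1 4.95-fold lower (adjusted p = 3.87e-05), Apobr 2.59-fold lower (adjusted p = 0.00011) and Pltp 1.97-fold lower (adjusted p = 0.00107).

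Of 10 other apolipoprotein genes, 6 passed the count filter in virgin females; 1 was higher and 1 lower in VF ileum than in jejunum, 1 higher and 2 lower than in duodenum, and 1 was lower in VF jejunum than in duodenum. Apoa2, a high-density lipoprotein component, was 3.25-fold lower in VF jejunum than in VF duodenum (log2 -1.70 ± 0.41, adjusted p = 0.00336), where VF duodenum library 3 carried 194 CPM of the liver gene Alb. Its level was 6.88-fold lower in VF ileum than in VF duodenum (adjusted p = 2.98e-05). Apod, found in many tissues, was 2.30-fold higher in VF ileum than in VF jejunum (adjusted p = 0.0168) and 3.38-fold higher than in VF duodenum (adjusted p = 0.00131).

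Of the partner genes, 3 of 64 tested were called for lactation in ileum, 1 of 64 in jejunum and 0 of 64 in duodenum, where 2.16%, 1.31% and 0.00662% of all genes were called, so the jejunal count is near the background. In ileum, Fabp2 was 1.96-fold higher, at 3896 ± 297 CPM in LF libraries and 1973 ± 673 CPM in VF libraries (log2 0.97 ± 0.21, adjusted p = 0.0214). Tm6sf2, a protein of lipid loading in the endoplasmic reticulum, was 235 ± 19.3 CPM in LF ileum and 164 ± 25.8 CPM in VF ileum (log2 0.51 ± 0.10, adjusted p = 0.0149). Nr2f2, a nuclear receptor, was 1.38-fold lower in LF ileum (log2 -0.46 ± 0.10, adjusted p = 0.0184). In jejunum, Ppara, the fatty acid sensing receptor, was 1.58-fold lower, at 52.9 ± 9.46 CPM in LF libraries and 83.7 ± 16.9 CPM in VF libraries (log2 -0.66 ± 0.16, adjusted p = 0.045). Mttp in ileum was 0.50 ± 0.13 (adjusted p = 0.0538), with 827 ± 88.1 CPM in LF libraries and 578 ± 105 CPM in VF libraries, beside Apob at 0.50. Mttp is named here after its values were seen.

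The genes whose 9 group means ran most like each member were found among 12180 genes by Pearson's r of mean log2 CPM, as a description. For Apoa4 they were Lct, which encodes lactase (r = 0.999), Homer2 and Sec22c (both r = 0.997), and for Apoc3 they were Slc35c2 (0.999), Fam53b and Leap2 (both 0.998). Apoa1 ran with Slc3a2 (0.998), Atpif1 and Slc5a4b (both 0.996). Apob ran with Fam126b (0.993), Suco (0.992) and Selenop (0.991). Apoc2 ran with Dnah2 (0.998), Abcb9 (0.994) and Acot12 (0.993), and Apoe with Chst2 (0.994), Tmem176a (0.992) and Klhl36 (0.991). Among the members themselves, r was 0.994 between Apoa4 and Apoc2, and 0.989 between Apoc3 and each of them. Apoa1 was nearest to Apob (0.936), and Apoe lay between -0.66 and 0.07 with the other 5.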

How the data were processed

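Polyadenylated RNA was made into stranded libraries (NEBNext Ultra II Directional) and sequenced, per the labels' protocols. The deposited values are raw counts of reads per gene, in the column for reverse-strand reads, which held at least 97.9% of stranded reads. The submitters' processing notes name the build GRCm38 and the tools STAR 2.7.7a, DESeq2 1.34.0 and FastQC 0.11.5. Rows of reads assigned to no gene, 20.0% to 31.7% of reads, stayed out of library sizes. The members and lists were chosen with earlier results of these data known. Genes were filtered (filterByExpr, minimum count 10, total 15), scaled by TMM and tested with edgeR 4.0.16 in R 4.3.3, with Benjamini-Hochberg adjustment over all genes tested. Each section comparison was fitted within the 3 sections of a group, and lactation and sex within the 3 groups of a section. RPKM used union exon lengths of GENCODE M21. Ratios and correlations used SciPy 1.17.1. Besides the 6 members, up to 4 called genes per list with the highest absolute log2 fold change and a mean log2 CPM of at least 1 were named, and 3 like genes per member; some genes that this rule names are not reported here. DESeq2 1.42.0, other scalings, no filter, unstranded counts, 1 fit of all groups, a replicate block and leaving out libraries were tried. Some same-numbered libraries deviated together. Their r was over 0.1 in 5 of 6 pairs for VF ileum over duodenum and in 4 of 5 for LF jejunum over duodenum. For LF ileum over duodenum it was over 0.1 in 0 of 5. No comparison had every pair over 0.1, and no pairing was used in the main fits. These values do not settle whether such libraries share animals. The test scripts were tested on simulated data.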

Additional observations from a re-analysis of the deposited data

Results flagged for a closer look

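Of 54 sets of libraries checked (6 genes in 9 groups), 4 held a library far from the rest of its group, and chance alone gives about 1 in 20. Apoa1 was 21821 CPM in VF jejunum library 5, with the next at 17791 CPM. Apob was 3732 CPM in LF duodenum library 5, with the next at 2189 CPM. Apoc2 was 3.13 CPM in VF duodenum library 5, with the next at 1.79 CPM. Apoc3 was 50.1 CPM in VF ileum library 2, with the next at 19.8 CPM.

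The 2 libraries left out carried some members above the range of the virgin females of the labelled section, on a scale set with those libraries included. The library labelled LF duodenum 3, with the liver profile, had 16282 CPM of Apoa1, against at most 13514 CPM in VF duodenum, and 5327 CPM of Apob, against at most 4302 CPM. It had 12.7 CPM of Apoc2, against at most 3.12 CPM in VF duodenum, 3043 CPM of Apoc3, against at most 1322 CPM, and 37634 CPM of Apoe, against at most 479 CPM. The library labelled LF jejunum 3, with duodenum markers, had 332 CPM of Apoe, against at most 271 CPM in VF jejunum. Other members lay below the range of the VF libraries, whose values in this comparison are on the scale of the 52 libraries used. LF duodenum 3 had 1982 CPM of Apoa4, against at least 8190 CPM in VF duodenum. LF jejunum 3 had 7596 CPM of Apoa1, 8406 CPM of Apoa4 and 1710 CPM of Apob, against at least 15407, 14404 and 4922 CPM in VF jejunum.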

How the results depend on the processing

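Of 801 single-member values under alternatives other than leaving out a library, 778 kept their direction and side of the threshold, 9 lost the call, 4 gained it and 10 changed sign. The causes were not tested. Lactation in ileum called 1 member with median-of-ratios scaling, 1 with DESeq2 and 1 in 1 fit of all 9 groups, in place of 0, and between 0 and 3 when a library was left out (3 without VF ileum library 2, 1 each without VF ileum libraries 4 and 6). With all libraries as labelled, jejunum over duodenum in lactating females called 1 member. These values then changed sign: 0.10 for Apoa1 and 1.00 for Apoc2 in duodenal lactation, -0.69 for Apoc2 in LF jejunum over duodenum, -0.15 for Apob in LF ileum over duodenum, -0.45 for Apob, -0.71 for Apoc2 and -3.76 for Apoe in the lactation effect of jejunum minus duodenum, and -0.53 for the duodenal Apoa4 to Apoa1 ratio in lactation (-0.045 to 0.12 when a library was left out). With library totals alone, Apoc2 in VF jejunum over duodenum was -0.19, and the lactation effect of jejunum minus duodenum was 0.034 for Apoa4 and 0.078 for Apoc3. Member relations with an adjusted p under 0.05 numbered 1 in ileum, 10 in jejunum and 5 in duodenum. The call of Apoc2 in LF jejunum over duodenum was also lost with library totals alone, DESeq2 (adjusted p = 0.0502), no filter, and 1 fit of all 9 groups, in which Apoa4 in VM jejunum over duodenum was lost too (adjusted p = 0.0832).

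Same-numbered libraries may share animals. With a replicate block the call of Apoc2 in LF jejunum over duodenum was lost (0.57, adjusted p = 0.0649) and 105 of 106 member values kept their call, Apob in ileal lactation being 0.51 (adjusted p = 0.0915).

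When a library was left out, values near 0 that were not called spanned both signs. For lactation in duodenum the ranges were -0.25 to 0.039 for Apoa1, -0.26 to 0.079 for Apoa4 and -0.25 to 0.12 for Apoc2, and in jejunum -0.20 to 0.045 for Apoa4. They were -0.28 to 0.29 for Apoc2 in VF jejunum over duodenum and -0.28 to 0.0031 for Apoc3 in VM jejunum over duodenum. For VF over VM they were -0.35 to 0.033 for Apob and -0.12 to 0.10 for Apoe in duodenum, -0.048 to 0.21 for Apoa4, -0.36 to 0.090 for Apoc2 and -0.070 to 0.19 for Apoc3 in jejunum, and -0.16 to 0.57 for Apoc3 and -0.0082 to 0.14 for Apoe in ileum. For the lactation effect of jejunum minus duodenum they were -0.30 to 0.0031 for Apoa1, -0.20 to 0.16 for Apoa4, -0.14 to 0.26 for Apob, -0.16 to 0.15 for Apoc3 and -0.0093 to 0.29 for Apoe.

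Counts over all genes moved more. Lactation called 327 genes in ileum, 194 in jejunum and 1 in duodenum, against 891, 546 and 102 with DESeq2 and 152, 138 and 127 in 1 fit of all 9 groups. In ileum it called 575 with library totals alone (123 higher, 452 lower, against 189 and 138). In jejunum it called 71 with no filter, 68 with all libraries and 67 with the block. In duodenum it called 3 with median-of-ratios scaling, no filter or unstranded counts, 8 with library totals alone, 2 with the block and 0 with all libraries. VF over VM called 15, 10 and 5 genes in ileum, jejunum and duodenum, against 68, 73 and 9 with DESeq2, and 10 in duodenum in 1 fit. The lactation effects called 4 (ileum minus jejunum), 11 (ileum minus duodenum) and 0 (jejunum minus duodenum), against 53, 49 and 7 with DESeq2, 15 and 27 for the first pair of these in 1 fit, 12 and 6 with the block, and, for ileum minus jejunum, 9 with library totals alone and 0 with all libraries. Leaving out a library gave 112 to 1184 genes for lactation in ileum (most without VF ileum library 2, fewest without VF ileum library 1), 8 to 150 in jejunum (fewest without LF jejunum library 6) and 1 to 21 in duodenum (most without LF duodenum library 6). It gave 1 to 12 for ileum minus jejunum, 5 to 27 for ileum minus duodenum and 0 to 4 for jejunum minus duodenum. For VF over VM it gave 10 to 90 in ileum (most without VF ileum library 2), 10 to 19 in jejunum and 5 to 6 in duodenum. With all libraries, 1747 genes were called for LF jejunum over duodenum in place of 4125, and 2517 for LF ileum over jejunum in place of 5611.

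Library totals alone moved the median of all genes in VF to 0.41 for ileum over jejunum (against 0.06), -0.27 for jejunum over duodenum (against -0.05) and 0.12 for ileum over duodenum (against -0.01). The split of calls in VF was then 8101 higher and 1731 lower, 1394 and 5650, and 4235 and 2877, in that order, against 3619 and 3652, 2599 and 3036, and 3191 and 3939 with TMM. Every called direction of a member was the same under both scalings. Apoc2 had the fewest counted reads of the members, with 47 reads over 18 ileum libraries.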
